A study of Mus musculus with 18 samples.

Results

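The comparison described here set WT mice after original learning against WT mice without training, and it took in 6 of the 18 libraries of the series, 3 mice in each group and 1 library per mouse. The members were the libraries labelled as of the wild-type genotype with original learning (WT_OL) or without training (WT_Basal). The comparison, its members and the lists of genes below were chosen with earlier results of these data known. All 6 mice were C57BL/6J, wild-type at *Ccny* and 8 to 10 weeks old, and RNA came from the hippocampus. In original learning of the Morris water maze, mice are trained over consecutive days to find a hidden platform and are then given a probe test. The untrained mice were naive to the maze, so learning, swimming, handling and the stress of the task cannot be told apart in this contrast, and the time from the last swim to tissue collection is not given in the sources used here. The remaining libraries were WT mice after reversal learning and *Ccny* KO mice (which lack cyclin Y) in the same 3 training states, and they entered the fits to estimate the spread between mice.

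When neurons fire, calcium and cAMP signals activate transcription factors that are already present, and these switch on immediate early genes within minutes without new protein synthesis. The products of the immediate early genes are partly transcription factors, which start later waves of transcription, and partly effectors that act at synapses, among them *Arc*, which controls the removal of AMPA receptors from the membrane. Training in water also raises corticosterone, whose receptors switch on a separate set of genes in neurons, astrocytes and vessels, and several clock genes respond both to neuronal activity and to this hormone.

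The deposited values were log2(CPM + 1) of 15329 genes, where CPM is the count of reads of a gene relative to the size of its library after TMM scaling, and the 6 libraries held 29248557 to 32853026 reads on these genes, so that 1 read was worth 0.0297 to 0.0333 CPM. With limma across all libraries, 3.88% of the genes were called higher and 5.62% lower after original learning at an adjusted p under 0.05. The median log2 change of all genes was -0.000253. A fit to the 6 libraries alone, with its own estimate of the spread, called 21 genes higher and 53 lower, so most calls rest on the spread shared with the other groups. All 3 trained mice lay above all 3 untrained mice in 13.1% of the genes and below them in 15.2%. Changes are given on the log2(CPM + 1) scale, which understates the change of weakly expressed genes, and values of single mice are given in CPM in the order of replicates 1, 2 and 3. In bulk tissue, fewer cells of a type and less RNA per cell cannot be told apart.

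Base composition moved with training. Among genes with a mean of at least 1 CPM, split into 5 classes of 2780 genes by the GC content of their transcripts, the median log2 change ran from -0.22 in the class with the lowest GC content to 0.17 in the class with the highest. In the lowest class 22.3% of the genes were called lower and 0.432% higher, and in the highest class 11.5% were called higher and 0.216% lower. The deviation of a library from the mean of all libraries correlated with GC content across genes at -0.490 to -0.339 in the 3 WT_Basal libraries and at 0.0841 to 0.352 in the 3 WT_OL libraries. The KO_Basal and KO_OL libraries had values of -0.317 to -0.305 and of 0.175 to 0.325. Since all untrained libraries lay on one side, the part of this difference in the calls cannot be told apart from training, and the lists of genes below are therefore given as deposited and after removal of the trend on GC content and transcript length within each library. After this correction 1.78% of the genes were called higher and 1.38% lower, with 155 higher and 177 lower calls shared with the deposited values. The counts of every list below are to be read against these shares and, as deposited, against the 3.88% of all genes called higher and 5.62% called lower.

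**Figure D1:**
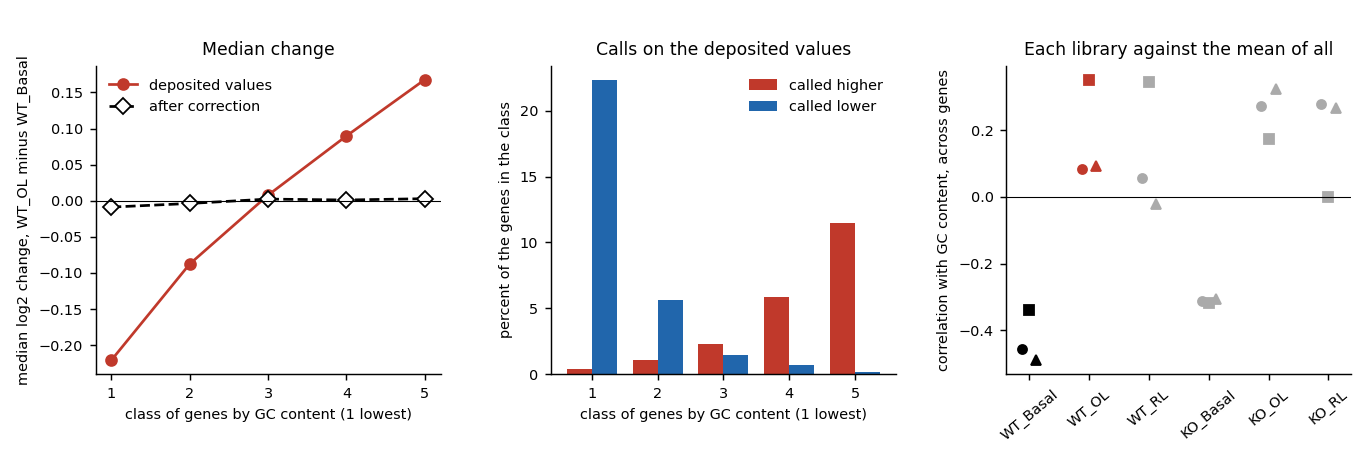
Left, median log2 change (WT_OL minus WT_Basal) in 5 classes of genes by GC content, as deposited and after correction. Middle, percent of genes called higher or lower in each class. Right, correlation across genes between GC content and the deviation of each of the 18 libraries from the mean of all, with circles, squares and triangles for replicates 1, 2 and 3. The median ran from -0.22 to 0.17 before the correction, and all WT_Basal libraries lay below 0 while all WT_OL libraries lay above it.

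The trained mice differed more among themselves than the untrained mice. Counts of 2 libraries differed by a chi-square per gene of 8.83 to 19.3 between untrained mice and of 24.1 to 105 between trained mice, and the pair farthest apart was WT_OL replicates 2 and 3. These 2 libraries deviated from the mean in opposite ways with transcript length (correlation across genes -0.498 in replicate 2 and 0.379 in replicate 3). Leaving out WT_OL replicate 3 raised the calls to 942 higher and 1554 lower, and leaving out WT_OL replicate 2 lowered them to 360 higher and 545 lower. Of 115 called genes singled out by a rule of size, 55 were still called after any 1 of the 6 libraries was left out.

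Immediate early transcription factors held the highest share of calls among the 44 lists of genes described here. Of 23 factors listed, 13 rose and 0 fell, against 3.88% of all genes called higher, and the median log2 change was 0.66. In 18 of the 23, all trained mice lay above all untrained mice, against 13.1% of all genes. After correction 9 were called higher, against 1.78% of all genes, with a median of 0.51. Without 1 of the 6 libraries the number called higher lay between 10 and 14. Summed over the list, the level was 785, 825 and 795 CPM in the untrained and 1181, 1116 and 1161 CPM in the trained mice.

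*Fos*, which pairs with *Jun* proteins to form the AP-1 transcription factor (chromosome 12, 85473890 to 85477273, GRCm38), was at 7.59, 5.73 and 6.43 CPM in the untrained mice and at 35.5, 29.1 and 22.4 CPM in the trained mice. The groups were apart by a wide margin, and the mean level was 4.40-fold higher (log2 change 1.97, standard error 0.219, adjusted p = 0.000143). *Fosb*, its close relative and the source of the stable ΔFosB protein (chromosome 7, 19302696 to 19310051), was at 4.03, 3.63 and 4.07 CPM and then at 11.1, 8.84 and 11.8 CPM (log2 change 1.23, standard error 0.152, adjusted p = 0.000356). *Junb* (chromosome 8, 84974484 to 84978718) went from 47.4, 44.3 and 39.9 CPM to 81.2, 75.8 and 68.0 CPM, a log2 change of 0.76 (adjusted p = 0.00531), and *Jund*, which is expressed at rest, from 58.1, 60.8 and 59.4 CPM to 76.7, 97.9 and 80.7 CPM, a log2 change of 0.50 (adjusted p = 0.00421). After correction *Jund* was called and *Junb* was not (adjusted p = 0.00768 and 0.0658). *Jun* itself showed no such separation, with 112, 111 and 97.8 CPM in untrained and 99.1, 81.2 and 129.6 CPM in trained mice (adjusted p = 0.815).

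Among the zinc finger factors of the Egr family, which bind GC-rich sites in the promoters of synaptic genes, 3 of the 4 members rose. *Egr2* (chromosome 10, 67535475 to 67542188) went from 1.47, 0.966 and 1.27 CPM to 6.82, 10.9 and 5.17 CPM, a 6.19-fold higher mean (log2 change 1.90, standard error 0.230, adjusted p = 0.000314). *Egr4* (chromosome 6, 85511121 to 85513589) went from 11.9, 10.2 and 10.51 CPM to 25.2, 30.3 and 26.8 CPM (log2 change 1.26, standard error 0.123, adjusted p = 9.10e-05), and here the trained mice lay close together. *Egr1*, also known as Zif268 and widely used to mark active neurons, went from 79.0, 79.6 and 91.5 CPM to 185, 182 and 173 CPM (log2 change 1.1, standard error 0.161, adjusted p = 0.000955). *Egr3* was the exception, at 93.1, 98.4 and 96.1 CPM in untrained and 90.8, 87.3 and 109 CPM in trained mice (log2 change -0.01, adjusted p = 0.969).

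*Nr4a1*, an orphan nuclear receptor (chromosome 15, 101254269 to 101274795), went from 41.5, 41.7 and 42.6 CPM to 99.5, 106 and 76.0 CPM (log2 change 1.13, standard error 0.185, adjusted p = 0.00177). Its relatives *Nr4a2* and *Nr4a3* were not called, at 37.0, 49.0 and 50.7 and then 73.8, 40.4 and 59.6 CPM for *Nr4a2* (adjusted p = 0.463) and 77.1, 94.3 and 80.6 and then 97.7, 61.0 and 115 CPM for *Nr4a3* (adjusted p = 0.857). The Krüppel-like factors *Klf2* and *Klf4* rose by 1.07 and 0.83 on the log2 scale (adjusted p = 0.00116 and 0.00137), with trained levels of 14.9, 15.3 and 8.96 CPM and 10.2, 9.67 and 7.85 CPM. *Npas4*, a factor that responds to calcium entry in neurons and shapes inhibitory synapses, was at 3.86, 6.03 and 3.66 CPM and then at 14.0, 10.3 and 7.11 CPM, with a log2 change of 1.04 (adjusted p = 0.0291). *Npas4* was not called without WT_Basal replicate 1 or 3 or WT_OL replicate 1 or 2 (adjusted p up to 0.119). The same held for *Ier2*, with a log2 change of 0.81, which was not called without WT_Basal replicate 1 or 3 or WT_OL replicate 2 (adjusted p up to 0.0750), and for *Maff*, with 0.66, which was not called without WT_Basal replicate 3 or WT_OL replicate 1 or 2 (adjusted p up to 0.0580).

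The start regions of 4 of the factors that rose are shown because cAMP response elements, the binding sites of CREB, are a known route from neuronal activity to these genes. Each is the 250 bases before the most upstream RefSeq start (GRCm38.p6), written 5′ to 3′ on the strand of the gene, and the capitals mark TGACG or its reverse complement CGTCA, either of which is the core of the cAMP response element. The region of *Fos* is chr12:85473640-85473889 (plus strand), that of *Egr4* chr6:85513590-85513839 (minus strand), that of *Fosb* chr7:19310046-19310295 (minus strand) and that of *Nr4a1* chr15:101266596-101266845 (plus strand). The region of *Nr4a1* lies inside the interval given above for this gene (101254269 to 101274795), so its RefSeq start is not the first base of that interval.
Fos: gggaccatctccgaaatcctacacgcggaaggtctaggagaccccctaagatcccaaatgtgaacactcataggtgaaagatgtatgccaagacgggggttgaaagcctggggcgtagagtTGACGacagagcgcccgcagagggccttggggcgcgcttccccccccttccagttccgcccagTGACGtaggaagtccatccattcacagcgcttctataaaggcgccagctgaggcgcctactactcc
Egr4: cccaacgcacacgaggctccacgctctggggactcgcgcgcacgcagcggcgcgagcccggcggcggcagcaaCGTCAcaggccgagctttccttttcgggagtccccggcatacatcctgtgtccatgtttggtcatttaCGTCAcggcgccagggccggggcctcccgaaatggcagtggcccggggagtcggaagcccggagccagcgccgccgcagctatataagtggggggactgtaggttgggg
Fosb: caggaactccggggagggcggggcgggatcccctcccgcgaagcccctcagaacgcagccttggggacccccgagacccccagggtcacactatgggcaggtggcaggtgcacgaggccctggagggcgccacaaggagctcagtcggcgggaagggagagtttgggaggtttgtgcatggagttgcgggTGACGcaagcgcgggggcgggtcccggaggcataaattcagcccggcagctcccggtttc
Nr4a1: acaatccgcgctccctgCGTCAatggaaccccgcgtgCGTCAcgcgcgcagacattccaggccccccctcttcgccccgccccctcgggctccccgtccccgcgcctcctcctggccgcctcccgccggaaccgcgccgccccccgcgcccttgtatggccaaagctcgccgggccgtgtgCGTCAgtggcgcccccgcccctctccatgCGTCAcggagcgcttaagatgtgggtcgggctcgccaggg

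The core stood 129 and 66 bases before the start of *Fos*, 177 and 109 bases before *Egr4*, 60 bases before *Fosb* and 233, 213, 69 and 40 bases before *Nr4a1*. In the same window *Klf2* held 1 core and *Egr2* held 0. Both strands were searched. Of the 19 immediate early factors with a RefSeq promoter in the table used, 13 (68.4%) held at least 1 core, as did 11 (47.8%) of 23 activity-induced effectors. The share was 17.8% among all 27025 promoters and 26.1% among the 11568 promoters of genes in the deposited table. The full element TGACGTCA, which contains the core on both strands, was in 1 of the 19 factors and in 5 of the 23 effectors, against 1.60% of all promoters and 2.69% of those in the deposited table. The CArG box, which binds SRF, was in 1 of the 19 factors and in 1.41% of all promoters. These matches describe letters in a window and show neither a bound site nor a cause, and factor binding was not measured here.

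Activity-induced effectors rose less uniformly. Of 30 listed, 8 (26.7%) rose, against 3.88% of all genes, and 0 fell, with a median log2 change of 0.22. After correction 7 were called higher, against 1.78% of all genes, with a median of 0.14. Without WT_Basal replicate 3 the list gave 5 rises, and without WT_OL replicate 3 it gave 10 rises and 2 falls. Without WT_OL replicate 2 and with the correction 3 were called higher. *Arc* (chromosome 15, 74669083 to 74672570), whose protein acts in AMPA receptor endocytosis, went from 89.3, 89.0 and 85.9 CPM to 312, 381 and 196 CPM, a 3.37-fold higher mean (log2 change 1.69, standard error 0.260, adjusted p = 0.00132). The untrained mice lay close together, whereas the trained mice were spread widely, with replicate 3 lowest. *Sik1*, a salt-inducible kinase that restrains CREB coactivators, went from 11.9, 8.59 and 9.68 CPM to 25.4, 17.4 and 17.7 CPM (log2 change 0.93, standard error 0.155, adjusted p = 0.00211). *Trib1*, a pseudokinase, and *Plk3*, a polo-like kinase, rose by 0.66 and 0.60 on the log2 scale (adjusted p = 0.00332 and 0.00232), with levels of 14.5, 19.0 and 13.9 CPM and of 11.3, 11.7 and 10.3 CPM in the trained mice.

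The effector genes with slower kinetics or with secreted products were mixed. *Nptx2*, a secreted pentraxin that clusters AMPA receptors, was at 22.2, 25.9 and 20.3 CPM and then at 30.1, 35.2 and 37.7 CPM (log2 change 0.57, adjusted p = 0.0188). *Vgf*, a secreted neuropeptide precursor, had a log2 change of 0.39 (adjusted p = 0.0240) that was 0.16 after correction (adjusted p = 0.444). *Bdnf*, the neurotrophin, was not called, at 54.2, 67.8 and 48.5 CPM in untrained and 42.4, 33.1 and 53.2 CPM in trained mice (adjusted p = 0.1004). *Homer1*, a postsynaptic scaffold with a short activity-induced form that gene-level counts do not separate, was at 120.0, 112 and 118 CPM and then at 89.6, 79.9 and 112 CPM (adjusted p = 0.0990). *Nptx2* was not called without WT_Basal replicate 1 or 3 or WT_OL replicate 2 (adjusted p up to 0.0944), *Vgf* was not called without WT_Basal replicate 1 or 3 or WT_OL replicate 1 or 3 (adjusted p up to 0.108), and *Gpr3*, with a log2 change of 0.55, was not called without WT_Basal replicate 2 or 3 or WT_OL replicate 2 (adjusted p up to 0.114). *Tiparp*, a mono-ADP-ribosyltransferase, had a log2 change of 0.39 as deposited (adjusted p = 0.0162) and of 0.62 after correction (adjusted p = 0.00135), and it was not called without WT_Basal replicate 2 or WT_OL replicate 1 (adjusted p up to 0.0783) as deposited.

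Inhibitors of MAP kinase signalling are themselves induced by the pathway they switch off. They rose in 5 of 18 cases (27.8%), against 3.88% of all genes, and fell in 0, with a median log2 change of 0.23. After correction 3 were called higher, with a median of 0.17. *Dusp5*, a nuclear phosphatase of ERK, went from 6.59, 4.995 and 4.11 CPM to 10.9, 9.37 and 11.4 CPM (log2 change 0.91, standard error 0.168, adjusted p = 0.00370). *Dusp1*, a phosphatase of p38, JNK and ERK, went from 15.7, 12.2 and 14.9 CPM to 29.5, 29.3 and 17.9 CPM, with trained replicate 3 closest to the untrained mice (log2 change 0.77, adjusted p = 0.0113), and was not called without WT_Basal replicate 2 or WT_OL replicate 2 (adjusted p up to 0.0505). *Spry4*, a Sprouty inhibitor of receptor tyrosine kinases, rose by 0.56 (adjusted p = 0.0106) and was not called without WT_Basal replicate 1 (adjusted p up to 0.0557). *Dusp7*, another ERK phosphatase, rose by 0.31 and was not called without WT_Basal replicate 1 or 3 or WT_OL replicate 1, 2 or 3 (adjusted p up to 0.168). Of the 5, *Dusp5* was called in each of the 6 fits without 1 library, and the number called in these fits lay between 2 and 4.

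**Figure D2:**
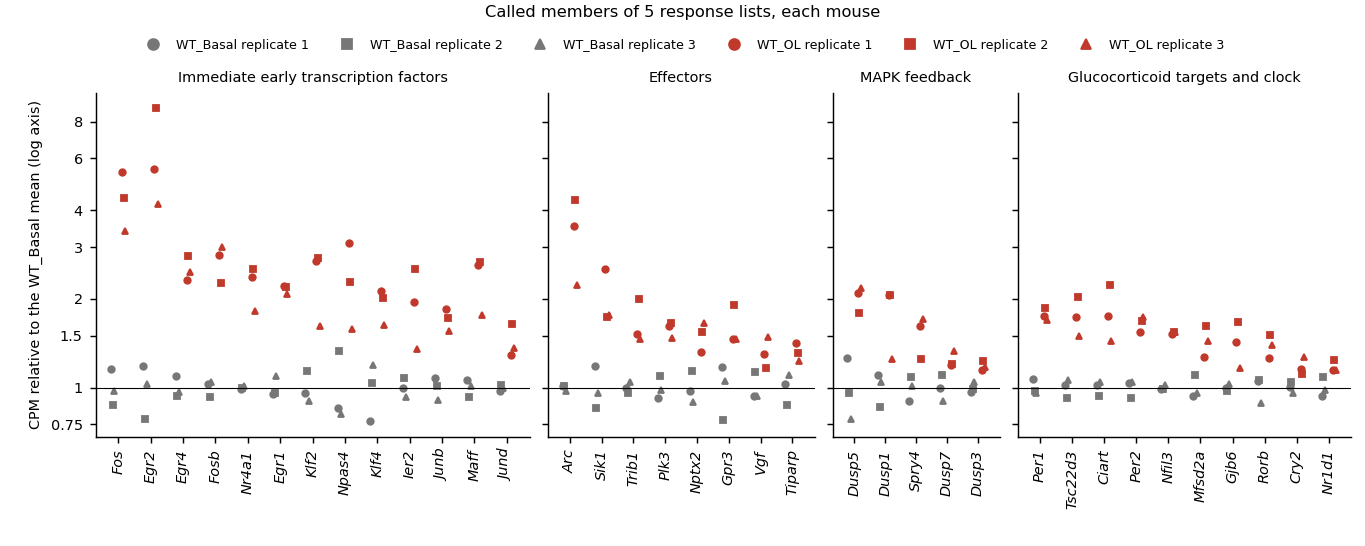
CPM of each mouse divided by the mean of the 3 WT_Basal mice (log axis) for every called member of 5 lists: immediate early transcription factors, activity-induced effectors, MAP kinase feedback inhibitors, and glucocorticoid targets and clock genes in 1 panel. Symbols stand for single mice. *Fos* and *Egr2* rose most, at 4.40 and 6.19 times the untrained mean, and *Nfil3* in the last panel had trained mice nearly at one level.

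The glucocorticoid receptors and their targets gave fewer calls. Of 26 genes listed, 4 (15.4%) rose, against 3.88% of all genes, and 0 fell, with a median log2 change of 0.25. After correction 5 were called higher, against 1.78% of all genes, with a median of 0.21. Without WT_OL replicate 3 the list gave 10 rises and 2 falls with a median of 0.41, and without any other single library 3 or 4 rises and 0 falls. *Tsc22d3*, which encodes the glucocorticoid-induced leucine zipper GILZ (chromosome X, 140539528 to 140600659), went from 66.1, 59.3 and 68.4 CPM to 112, 131 and 96.5 CPM (log2 change 0.79, standard error 0.0993, adjusted p = 0.000356). After correction its log2 change was 0.82 (adjusted p = 0.000293). *Gjb6*, the astrocyte gap junction protein connexin 30, rose by 0.48 (adjusted p = 0.0110), and *Mfsd2a*, a lipid transporter of brain endothelium, by 0.50 (adjusted p = 0.0110). *Gjb6* was called in each of the 6 fits that left out 1 library, and *Mfsd2a* was not called without WT_Basal replicate 1 or 3 (adjusted p up to 0.0532). *Sgk1*, a kinase often used as a read-out of this hormone, was higher in each trained mouse, at 152, 137 and 119.9 CPM against 88.4, 68.3 and 84.4 CPM, but was not called (adjusted p = 0.113). *Fkbp5*, the receptor's co-chaperone, was at 71.7, 77.7 and 71.2 CPM in untrained and 68.7, 51.4 and 86.7 CPM in trained mice (adjusted p = 0.598). *Nr3c1*, the receptor itself, was at 117, 111 and 119 CPM and 105, 94.3 and 109.9 CPM (adjusted p = 0.176).

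Circadian clock genes rose in 7 of 21 cases (33.3%), against 3.88% of all genes, and fell in 0, with a median log2 change of 0.22. After correction 5 were called higher, against 1.78% of all genes, with a median of 0.17. The number called higher was 4 without WT_Basal replicate 1 or 3, and without WT_OL replicate 3 the list gave 7 rises and 2 falls. *Per1* (chromosome 11, 69095217 to 69109960), a repressor in the clock's feedback loop and also a glucocorticoid target counted in both lists, went from 69.6, 63.5 and 62.3 CPM to 114, 121 and 111 CPM (log2 change 0.81, standard error 0.0805, adjusted p = 9.10e-05). *Per2*, its partner, went from 32.2, 28.5 and 32.3 CPM to 47.7, 52.2 and 53.7 CPM (log2 change 0.71, standard error 0.0970, adjusted p = 0.000662). *Ciart*, a repressor of the CLOCK and BMAL1 pair, went from 10.6, 9.72 and 10.9 CPM to 18.2, 23.1 and 14.9 CPM (log2 change 0.77, adjusted p = 0.00187), and *Nfil3*, a repressor that opposes DBP, from 5.99, 5.99 and 6.21 CPM to 9.25, 9.34 and 9.36 CPM (log2 change 0.55, adjusted p = 0.00256). In 13 of the 21, all trained mice lay above all untrained mice, against 13.1% of all genes. In 2, the activators *Arntl* and *Clock*, they lay below, against 15.2% of all genes, and neither was called. *Arntl*, which encodes BMAL1, was at 27.3, 30.3 and 28.8 CPM and then at 21.6, 20.8 and 26.2 CPM (log2 change -0.33, adjusted p = 0.0603), and *Clock* was at 116, 111 and 121 CPM and 100.1, 70.3 and 109.9 CPM (adjusted p = 0.152). *Rorb*, a nuclear receptor of the ROR family, rose by 0.45, and by 0.67 after correction (adjusted p = 0.0233), and was not called without WT_Basal replicate 1, 2 or 3 or WT_OL replicate 2 (adjusted p up to 0.148) as deposited. *Cry2*, a repressor, and *Nr1d1*, a nuclear receptor that represses *Arntl*, had log2 changes of 0.24 and 0.24, and were not called without WT_Basal replicate 1, 2 or 3 or WT_OL replicate 1 or 3 (adjusted p up to 0.161) and not called without WT_Basal replicate 1 or 3 or WT_OL replicate 1 or 2 (adjusted p up to 0.183). The hour of tissue collection is not given in the sources used here, and a difference in the hour between the groups cannot be told apart from training in this list.

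Chaperones gave few calls, with 2 of 40 called higher and 1 called lower, against 3.88% and 5.62% of all genes. The median log2 change was 0.09. After correction 2 were called higher and 0 lower, with a median of 0.11. The list gave 2 rises and 6 falls without WT_OL replicate 3, and without any other single library 1 or 2 rises and 0 or 1 falls. *Dnajb1*, a heat-inducible partner of HSP70, went from 45.3, 44.8 and 45.8 CPM to 65.7, 70.4 and 62.9 CPM (log2 change 0.54, standard error 0.0951, adjusted p = 0.00291) and was called in every alternative fit planned. *Hspb1*, a small heat shock protein, went from 2.26, 2.40 and 3.119 CPM to 6.32, 7.98 and 5.08 CPM (log2 change 1.04, adjusted p = 0.0223) and was not called without WT_Basal replicate 1 or 2 or WT_OL replicate 1 or 2 (adjusted p up to 0.0877). After correction *Hspb1* was not called (adjusted p = 0.0959). The inducible HSP70 genes were not called, with 5.46, 5.66 and 5.70 and then 8.22, 4.84 and 9.33 CPM of *Hspa1a* (adjusted p = 0.433), and reads of *Hspa1a* and *Hspa1b*, which are near-identical, may be divided among these 2 genes or absent from both.

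Genes of cholesterol synthesis and uptake rose in 5 of 27 cases and fell in 0, with a median log2 change of 0.15, and 3 were called higher after correction, with a median of 0.11. The summed level of the list was 1738, 1783 and 1869 CPM in the untrained and 1953, 1952 and 1923 CPM in the trained mice, without overlap between the groups. *Mvd*, an enzyme of the mevalonate pathway, went from 20.1, 18.9 and 19.6 CPM to 23.2, 29.5 and 23.9 CPM (log2 change 0.36, standard error 0.0980, adjusted p = 0.0292) and was not called without WT_Basal replicate 1, 2 or 3 or WT_OL replicate 2 (adjusted p up to 0.120). *Srebf2*, the transcription factor that switches on this pathway, went from 166, 187 and 174 CPM to 209, 193 and 227 CPM (log2 change 0.25, standard error 0.0642, adjusted p = 0.0215) and was not called without WT_Basal replicate 1 or 3 or WT_OL replicate 1 (adjusted p up to 0.104). After correction neither was called, with log2 changes of 0.20 (adjusted p = 0.205) and 0.07 (adjusted p = 0.529). Between 2 and 8 genes of this list were called higher when 1 library was left out, fewest when that was WT_Basal replicate 1 and most when it was WT_OL replicate 3.

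Lists of receptors for glutamate and GABA gave 0 to 3 calls each. Of 20 AMPA receptor subunits and auxiliary proteins, 0 rose and 2 (10%) fell, against 5.62% of all genes called lower, with a median log2 change of -0.06. After correction 1 was called lower, with a median of -0.13, and without WT_OL replicate 3 as deposited 4 were. *Gria2*, the subunit that makes AMPA receptors impermeable to calcium, was at 1023, 1064 and 981 CPM in untrained and 699, 507 and 774 CPM in trained mice (log2 change -0.65, standard error 0.140, adjusted p = 0.00876). After correction its log2 change was -0.27 (adjusted p = 0.172), and as deposited it moved to -0.47 when WT_OL replicate 2 was left out and to -0.78 when replicate 3 was. *Cacng2*, which encodes stargazin, a protein that carries AMPA receptors to synapses, went from 49.0, 49.3 and 52.5 CPM to 37.8, 30.1 and 41.5 CPM (log2 change -0.46, standard error 0.0991, adjusted p = 0.00871), and its log2 change after correction was -0.52 (adjusted p = 0.00400). Of 12 NMDA receptor and CaMKII genes, 0 were called as deposited (median 0.08) or after correction (median -0.06), and 2 were called higher without WT_OL replicate 3. *Camk2a*, the major kinase of the postsynaptic density, was at 3651, 4543 and 3743 CPM and 4277, 5395 and 4172 CPM (adjusted p = 0.364).

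Of 18 GABA receptor genes and their scaffolds, 0 rose and 3 (16.7%) fell, against 5.62% of all genes called lower, with a median log2 change of -0.28. *Gabra4*, a subunit of extrasynaptic and synaptic receptors, went from 151, 154 and 155 CPM to 124, 116 and 132 CPM (log2 change -0.31, standard error 0.0773, adjusted p = 0.0205) and was not called without WT_Basal replicate 1, 2 or 3 or WT_OL replicate 1 or 2 (adjusted p up to 0.0769). After correction 0 of the 18 were called and the median was -0.12. The number called lower was 1 without any single untrained library or without WT_OL replicate 2, and 7 without WT_OL replicate 3. Among kainate and metabotropic glutamate receptors, 2 of 14 (14.3%) rose, against 3.88% of all genes called higher. These were *Grik5* by 0.30 (adjusted p = 0.0250) and *Grm3* by 0.29 (adjusted p = 0.0342), while the median of the list was -0.17. After correction *Grm3* was called and *Grik5* was not (adjusted p = 0.0216 and 0.612), and the median was -0.08. *Grik5* was not called without WT_Basal replicate 1 or 3 or WT_OL replicate 2 (adjusted p up to 0.118), and *Grm3* was not called without WT_Basal replicate 1, 2 or 3 or WT_OL replicate 1 or 2 (adjusted p up to 0.0994). With WT_OL replicate 3 left out, 6 of these 14 were called lower and 2 higher, and without WT_Basal replicate 1, WT_Basal replicate 3 or WT_OL replicate 2 limma called 0.

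Scaffolds and adhesion proteins of the postsynaptic density gave 6 rises and 2 falls among 36 genes, against 3.88% and 5.62% of all genes. The median log2 change was 0.10. *Shank1*, a master scaffold of excitatory synapses (chromosome 7, 44310253 to 44360572), went from 239, 276 and 205 CPM to 411, 551 and 378 CPM, a 1.86-fold higher mean (log2 change 0.88, standard error 0.130, adjusted p = 0.000992). After correction its log2 change was 0.70 (adjusted p = 0.0290). *Dlgap3*, a SHANK-binding scaffold, rose by 0.56 (adjusted p = 0.0131) and *Nlgn3*, a neuroligin of excitatory and inhibitory synapses, by 0.54 (adjusted p = 0.0158). *Dlgap3* was not called without WT_Basal replicate 1 or 3 (adjusted p up to 0.0629), and *Nlgn3* was not called without WT_Basal replicate 3 (adjusted p up to 0.0732). Exons of *Nlgn3* overlap those of another annotated gene over 3823 bases on the same strand, so its reads could have been left out or split in counting. *Lrrtm2*, a postsynaptic adhesion protein, went from 93.8, 90.6 and 97.3 CPM to 62.3, 50.3 and 75.2 CPM (log2 change -0.60, standard error 0.118, adjusted p = 0.00580), with -0.30 after correction (adjusted p = 0.0394). After correction 2 genes of the list were called higher, *Shank1* and *Nlgn3*, and 2 lower, with a median of 0.03. Without WT_OL replicate 3 the list gave 5 rises and 8 falls, without WT_Basal replicate 1 it gave 3 rises and 1 fall, and without WT_Basal replicate 3 it gave 2 rises and 1 fall.

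On the presynaptic side 4 of 40 genes of vesicle release (10%) rose, against 3.88% of all genes, and 0 fell. The median log2 change was -0.06. *Rims3*, an active zone protein, went from 10.4, 10.7 and 12.99 CPM to 20.3, 24.8 and 15.3 CPM (log2 change 0.76, adjusted p = 0.0126), and was not called without WT_Basal replicate 1 or WT_OL replicate 2 (adjusted p up to 0.0590). *Rims1*, its larger relative, rose by 0.38 and was not called without WT_Basal replicate 1, 2 or 3 or WT_OL replicate 1 or 2 (adjusted p up to 0.158), and the active zone protein gene *Ppfia3*, which rose by 0.33, was not called without WT_Basal replicate 1 or 3 or WT_OL replicate 2 (adjusted p up to 0.0933). None of the 4 was called after correction (limma, 0 of 40 called, adjusted p = 0.0987 for *Rims3*, 0.123 for *Rims1* and 0.503 for *Ppfia3*), and the median was then -0.03. As deposited, 0 were called without WT_Basal replicate 1, 1 rose without WT_OL replicate 2, 2 rose without WT_Basal replicate 3, and 6 rose and 4 fell without WT_OL replicate 3. Among genes of transmitter synthesis and transport, 1 of 24 rose and 1 fell, with a median log2 change of -0.08. After correction these were again 1 and 1, with a median of -0.10, and without WT_OL replicate 3 the list gave 1 rise and 4 falls. *Slc1a2*, the glial glutamate transporter GLT-1 (chromosome 2, 102658659 to 102790784), went from 2508, 2645 and 2416 CPM to 3736, 4150 and 3672 CPM, a 1.53-fold higher mean (log2 change 0.61, standard error 0.103, adjusted p = 0.00228), and after correction its log2 change was 0.75 (adjusted p = 0.0265). *Slc17a8*, the vesicular glutamate transporter VGLUT3 of a minor class of neurons, went from 10.4, 8.26 and 12.6 CPM to 5.93, 3.26 and 6.71 CPM (log2 change -0.89, adjusted p = 0.0161) and was not called without WT_Basal replicate 1 or 3 or WT_OL replicate 2 (adjusted p up to 0.0862). Of 26 neuropeptide genes, *Vgf* alone was called as deposited, and limma called 0 after correction (adjusted p = 0.444 for *Vgf*), with medians of 0.01 and -0.05.

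Potassium channels and sodium, calcium and HCN channels were called lower about as often as all genes. Of 60 potassium channel genes, 0 rose and 4 (6.67%) fell as deposited, against 5.62% of all genes called lower, and limma called 0 after correction, with a median log2 change of -0.05 both ways. *Kcnip4*, a calcium-binding partner of A-type channels, went from 62.2, 68.9 and 72.4 CPM to 46.7, 38.7 and 56.3 CPM (log2 change -0.53, standard error 0.109, adjusted p = 0.00748, and -0.27 with adjusted p = 0.220 after correction). *Kcnd2*, the A-type channel of pyramidal cell dendrites, was at 151, 158 and 144 CPM and then at 112, 65.8 and 134 CPM, with trained replicate 2 far below the others, and its log2 change moved from -0.59 to -0.30 without that mouse. *Kcnd2* was not called without WT_Basal replicate 1, 2 or 3 or WT_OL replicate 1 or 2 (adjusted p up to 0.140). *Kcnab1*, a beta subunit, fell by 0.46 and was not called without WT_Basal replicate 3 (adjusted p up to 0.0622), and *Kcnv1*, a silent subunit, fell by 0.44 and was not called without WT_Basal replicate 1, 2 or 3 or WT_OL replicate 1 (adjusted p up to 0.0804). Of 28 sodium, calcium and HCN channel genes 1 rose and 2 fell, with a median log2 change of -0.26, and after correction limma called 0, with a median of -0.17. *Hcn2*, a pacemaker channel, rose by 0.37 and was not called without WT_Basal replicate 1 or 3 or WT_OL replicate 2 (adjusted p up to 0.0833). *Cacnb4*, a calcium channel beta subunit, went from 191, 191 and 225 CPM to 152, 119 and 142 CPM (log2 change -0.56, standard error 0.116, adjusted p = 0.00769). *Cacna2d1*, the subunit that binds gabapentin, fell by 0.64 and was not called without WT_Basal replicate 1, 2 or 3 or WT_OL replicate 1 or 2 (adjusted p up to 0.176). Without WT_OL replicate 3, the numbers called lower were 10 of 60 and 10 of 28, and without any other single library they lay between 1 and 3 of 60 and at 1 of 28.

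**Figure D3:**
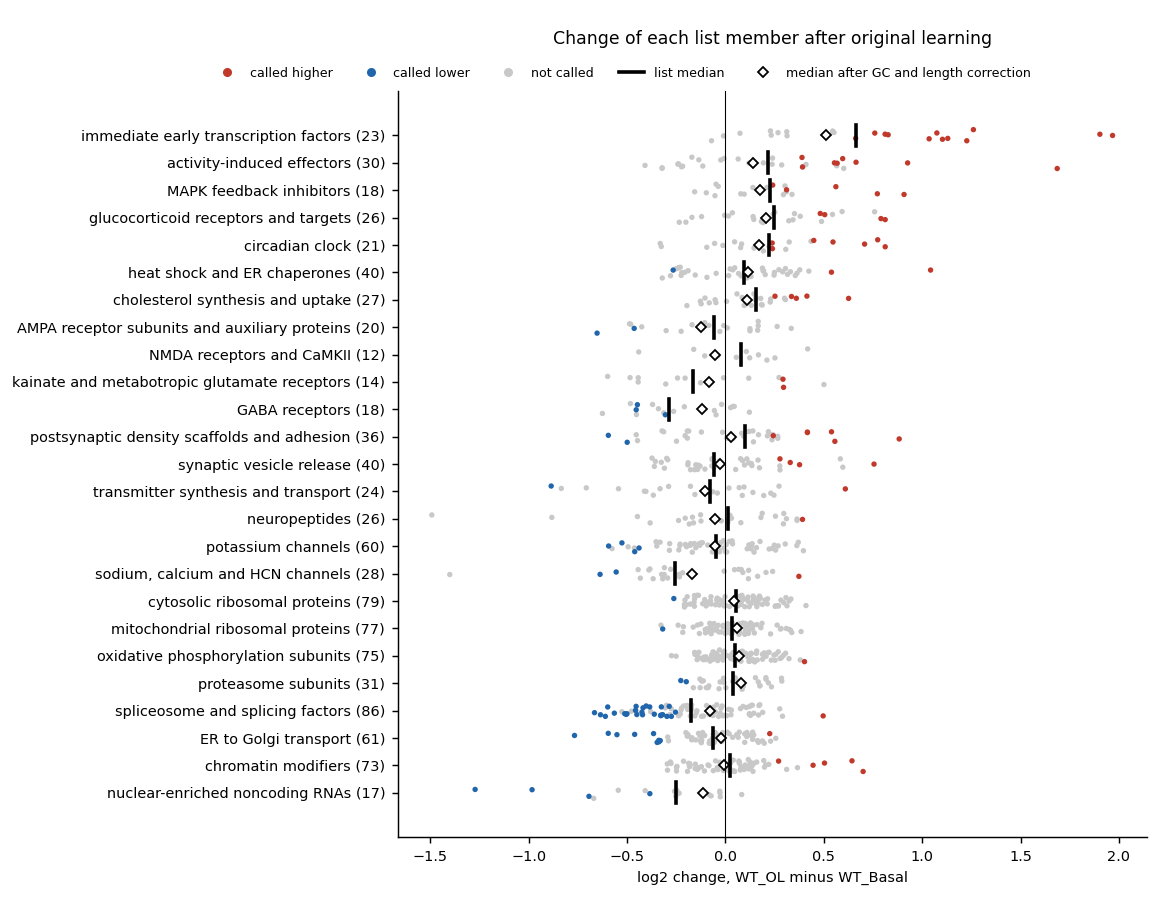
Log2 change (WT_OL minus WT_Basal) of each member of 25 lists, 1 dot per gene, red where called higher, blue where called lower and grey where not called. The bar is the median of the list as deposited and the diamond the median after correction for GC content and transcript length; the number of genes listed is in brackets. Immediate early transcription factors stand to the right, with a median of 0.66, and splicing factors have the most falls, 25 of 86.

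The list with the most falls held proteins that splice pre-mRNA. Of 86 spliceosome components and splicing factors, 25 fell and 1 rose, against 5.62% of all genes called lower, with a median log2 change of -0.17. In 39 all trained mice lay below all untrained mice, against 15.2% of all genes. After correction 9 were called lower and 0 higher, against 1.38% of all genes called lower, with a median of -0.08. These transcripts are AT-rich, with a median GC content of 46.3%. *Hnrnpr*, a heterogeneous nuclear ribonucleoprotein, went from 141, 145 and 143 CPM to 90.6, 74.3 and 107 CPM (log2 change -0.67, standard error 0.0971, adjusted p = 0.000955), and after correction its log2 change was -0.38 (adjusted p = 0.0309). *Mbnl2*, a muscleblind protein that regulates splicing and RNA localization in brain, went from 287, 276 and 294 CPM to 195, 141 and 224 CPM (log2 change -0.64, standard error 0.127, adjusted p = 0.00600), with -0.64 after correction. *Luc7l2*, a component of the U1 particle, went from 192, 164 and 182 CPM to 126, 107 and 119 CPM (log2 change -0.61, standard error 0.112, adjusted p = 0.00351). The core particle genes *Snrpd1* and *Snrpd3* and the SR protein gene *Srsf1* fell too, *Srsf1* from 192, 172 and 195 CPM to 139.5, 117 and 139 CPM (log2 change -0.50, adjusted p = 0.00738). The single rise was *Nova2*, a neuronal splicing regulator, at 66.3, 81.9 and 59.4 CPM and then 95.2, 78.7 and 122 CPM (adjusted p = 0.0440), not called without WT_Basal replicate 1 or 3 or WT_OL replicate 1 or 3 (adjusted p up to 0.183). Exons of *Hnrnpr* and *Luc7l2* overlap other genes on the opposite strand. The number called lower lay between 16 and 38 when 1 library was left out, lowest without WT_Basal replicate 3 and highest without WT_OL replicate 3.

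Vesicle traffic from the endoplasmic reticulum to the Golgi gave 9 falls and 1 rise among 61 genes, against 5.62% and 3.88% of all genes. The median log2 change was -0.06. After correction 2 genes were called higher and 3 lower, with a median of -0.02. Leaving out WT_Basal replicate 3 gave 6 falls, and leaving out WT_OL replicate 3 gave 15. A pair of p24 cargo receptors led the group. *Tmed5* (chromosome 5, 108106366 to 108132620) went from 50.7, 50.1 and 54.1 CPM to 30.5, 27.9 and 31.4 CPM (log2 change -0.77, standard error 0.0826, adjusted p = 0.000143), and *Tmed7* from 158, 155 and 162 CPM to 111, 96.8 and 106 CPM (log2 change -0.60, standard error 0.0656, adjusted p = 0.000143). Both were called in every alternative fit planned, with log2 changes of -0.38 and -0.39 after correction. Exons of *Tmed7* overlap those of *Ticam2* on the same strand over 838 bases. *Rab2a*, a small GTPase between these compartments, fell by 0.55 (adjusted p = 0.00510) and *Bet1*, a SNARE, by 0.46 (adjusted p = 0.00144), and after correction these were -0.42 (adjusted p = 0.0747) and -0.09 (adjusted p = 0.508). *Sec22b*, another SNARE, rose by 0.23 (adjusted p = 0.0470) and by 0.38 after correction (adjusted p = 0.00820), and as deposited was not called without WT_Basal replicate 1, 2 or 3 or WT_OL replicate 1, 2 or 3 (adjusted p up to 0.161).

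**Figure D4:**
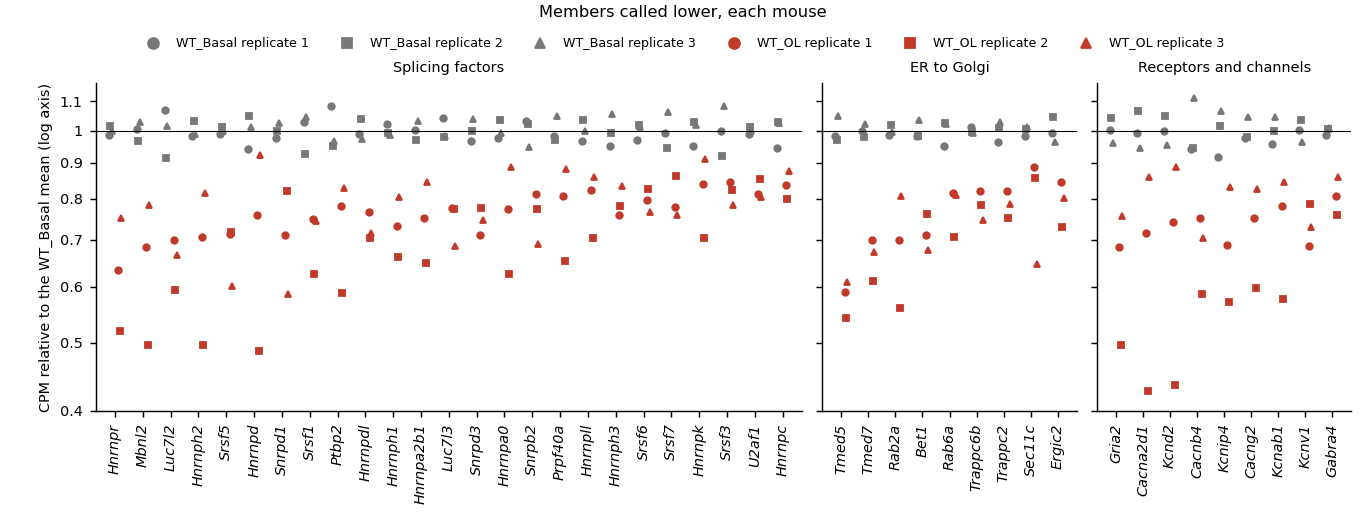
CPM of each mouse divided by the mean of the 3 WT_Basal mice (log axis) for members called lower among splicing factors (25 genes), transport from endoplasmic reticulum to Golgi (9 genes) and AMPA receptors, GABA receptors and ion channels (9 of 11 genes). Symbols stand for single mice. WT_OL replicate 2 is the lowest trained mouse in 8 of the 9 receptor and channel genes shown, while *Tmed5* shows the 3 trained mice close together.

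Large complexes of translation, respiration and protein breakdown gave few calls. Of 79 cytosolic ribosomal proteins 0 rose and 1 fell, of 77 mitochondrial ones 0 and 1, of 75 subunits of oxidative phosphorylation 1 and 0, and of 31 proteasome subunits 0 and 2. Their median log2 changes were 0.05, 0.03, 0.05 and 0.04. After correction 2 cytosolic ribosomal protein genes, 4 subunits of oxidative phosphorylation and 2 proteasome subunits were called higher and 0 lower, so that the calls among the proteasome subunits turned from lower to higher. No mitochondrial ribosomal protein gene was called after correction (limma, 0 of 77), and the medians were 0.04, 0.06, 0.07 and 0.08. The spread among the trained mice was large. Summed over the cytosolic ribosomal proteins, the level was 15783, 16134 and 15726 CPM in the untrained mice and 16460, 20991 and 12938 CPM in the trained mice, so that trained replicates 2 and 3 stood on either side of the untrained range. The median distance of these genes from the untrained mean was 0.42 in replicate 2 and -0.31 in replicate 3. With replicate 3 left out, 11 cytosolic and 6 mitochondrial ribosomal protein genes, 11 subunits of oxidative phosphorylation and 2 proteasome subunits were called higher, and with replicate 2 left out limma called 0 of each higher and 1 of each lower.

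Among 73 chromatin modifiers 5 (6.85%) rose, against 3.88% of all genes, and 0 fell, with a median log2 change of 0.02. After correction 2 were called higher, against 1.78% of all genes, and 0 lower, with a median of -0.01. The list gave 6 rises and 8 falls without WT_OL replicate 3, with a median of -0.07, and without any other single library 4 or 5 rises and 0 falls. *Hdac4*, a histone deacetylase that leaves the nucleus on synaptic activity, went from 19.8, 19.6 and 16.3 CPM to 31.4, 29.6 and 31.0 CPM (log2 change 0.70, standard error 0.0934, adjusted p = 0.000517) and was called in every alternative fit planned. *Crebbp*, the CREB-binding acetyltransferase, went from 31.5, 29.0 and 26.9 CPM to 46.3, 36.8 and 56.8 CPM (log2 change 0.64, standard error 0.126, adjusted p = 0.00523). *Hdac5*, of the same class as *Hdac4*, rose by 0.50 (adjusted p = 0.00243), and *Kdm6b*, a histone demethylase, by 0.45 (adjusted p = 0.0190). *Kdm6b* was not called without WT_Basal replicate 2 or 3 or WT_OL replicate 1 (adjusted p up to 0.0847). After correction *Hdac4* and *Crebbp* were called, at 0.64 and 0.62. Exons of *Hdac4* overlap an antisense gene over 3536 bases.

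Noncoding RNAs listed as nuclear-enriched fell in 4 of 17 cases (23.5%), against 5.62% of all genes, and rose in 0. Their median log2 change was -0.25, and their place in the cell was not measured here. After correction 2 were called lower, with a median of -0.11, and the median GC content of the list was 44.6%. Between 2 and 3 were called lower without any 1 library, with 2 without WT_Basal replicate 1 or 2 or WT_OL replicate 1 or 2. The antisense transcript *Gt(ROSA)26Sor* (chromosome 6, 113067428 to 113077333) went from 16.0, 13.6 and 13.8 CPM to 6.29, 5.84 and 4.22 CPM (log2 change -1.27, standard error 0.141, adjusted p = 0.000143). *Snhg14*, the long host transcript that runs antisense to *Ube3a* (chromosome 7, 59307924 to 59975759), went from 22.8, 19.1 and 18.7 CPM to 11.3, 7.15 and 11.1 CPM (log2 change -0.98, standard error 0.190, adjusted p = 0.00492), and *Snord64*, a small nucleolar RNA of the same region, from 4.49, 2.40 and 2.51 CPM to 1.51, 0.920 and 0.770 CPM (log2 change -0.98, adjusted p = 0.0164), not called without WT_Basal replicate 1 or WT_OL replicate 2 (adjusted p up to 0.0925). After correction the first 2 were called, at -0.90 and -0.59, and *Snord64* was not, at -0.55 (adjusted p = 0.242). *Snhg14* and *Ube3a* share 1803 bases of exons on opposite strands, and whether counting used strand is not given in the sources used here. The abundant *Malat1* and *Meg3* were not called, with 605, 355 and 305 and then 295, 303 and 236 CPM of *Malat1* (adjusted p = 0.197). Reads of a library selected for poly(A) tails cover such RNAs in part, and the part of nuclear or unspliced RNA in these values was not tested.

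Outside the lists, the 12 largest rises with no overlap between the groups also held *Apold1*, *Tmem252* and *Prph*. *Apold1*, an immediate early gene of vascular endothelium, went from 3.36, 2.76 and 3.25 CPM to 15.0, 9.11 and 5.30 CPM (log2 change 1.29, standard error 0.225, adjusted p = 0.00271), and *Tmem252*, a small membrane protein, from 1.498, 0.666 and 0.446 CPM to 3.77, 3.83 and 2.22 CPM (log2 change 1.21, standard error 0.204, adjusted p = 0.00221). Both were called in each of the 6 fits without 1 library. *Prph*, the neurofilament protein peripherin, had a log2 change of 1.05 and was not called without WT_Basal replicate 1 or 2 or WT_OL replicate 1 or 2 (adjusted p up to 0.103). The largest falls held *Clec2d*, an immune ligand of the C-type lectin family, from 12.9, 13.2 and 13.1 CPM to 6.97, 5.84 and 4.50 CPM (log2 change -1.07, standard error 0.142, adjusted p = 0.000517). *Zxdb*, a zinc finger gene on the X chromosome, went from 16.6, 17.02 and 17.1 CPM to 8.27, 5.99 and 8.68 CPM (log2 change -1.06, standard error 0.150, adjusted p = 0.000738) and *Arxes2* from 53.7, 49.2 and 52.3 CPM to 28.1, 21.7 and 29.4 CPM (log2 change -0.95, standard error 0.112, adjusted p = 0.000228). *Zxdb* and *Arxes2* have close copies next to them in the genome, and their reads may have been split between copies or left out in counting. *Gh*, growth hormone, was at 0.0666, 32.3 and 7.32 CPM in the untrained and at 0 CPM in all trained mice, so that untrained replicates 2 and 3 carried the difference. *Gh* was not called without WT_Basal replicate 2 or without WT_Basal replicate 3, nor without WT_OL replicate 1 or WT_OL replicate 2, and its highest adjusted p over these fits was 0.117. Of the 6 pituitary genes listed, *Gh* alone was called, as deposited and after correction. *Pomc*, another product of the pituitary, was highest in the same untrained replicate 2, at 1.47, 7.63 and 1.34 CPM in the untrained and 0.890, 1.93 and 1.17 CPM in the trained mice.

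Markers of glia moved unevenly. Of 20 astrocyte markers, 5 (25%) rose, against 3.88% of all genes, and 0 fell, with a median log2 change of 0.27. After correction 4 were called higher, against 1.78% of all genes, with a median of 0.24. The summed level was 7518, 8054 and 7499 CPM in the untrained and 9730, 11316 and 9012 CPM in the trained mice. *Slc1a2*, at the levels given above, held a large part of this sum and of its rise. The rises were *Slc1a2*, *Gjb6*, *Fam107a*, *Aldh1l1* and *Fgfr3*. *Gfap*, the astrocyte filament that rises in reactive cells, was not called, with 395, 502 and 372 CPM and then 514, 661 and 443 CPM (adjusted p = 0.171), and *Aldh1l1*, a pan-astrocyte enzyme, went from 54.7, 60.1 and 60.9 CPM to 78.9, 103 and 69.8 CPM (log2 change 0.49, adjusted p = 0.0202) and was not called without WT_Basal replicate 1 or 3 or WT_OL replicate 2 (adjusted p up to 0.0890). In all 3 trained mice the median marker stood above the untrained mean, by 0.25, 0.48 and 0.06. The number of astrocyte markers called lay between 2 and 8 without 1 library, lowest without WT_Basal replicate 1, WT_Basal replicate 3 or WT_OL replicate 2 and highest without WT_OL replicate 3. *Slc1a2* and *Gjb6* were called in all 6 of those fits.

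Microglial markers split in both directions, with 3 of 20 called higher and 2 called lower, against 3.88% and 5.62% of all genes. The median was 0.02. After correction 1 was called higher and 0 lower, with a median of -0.05. Without WT_Basal replicate 1 the numbers as deposited were 0 and 3. *P2ry12*, a receptor for ATP and ADP that marks resting microglia, went from 58.1, 62.3 and 60.7 CPM to 41.6, 47.8 and 36.8 CPM (log2 change -0.52, standard error 0.0824, adjusted p = 0.00153), and *Gpr34*, a lipid receptor, from 20.9, 21.02 and 19.0 CPM to 15.4, 12.1 and 12.7 CPM (log2 change -0.57, standard error 0.116, adjusted p = 0.00647). *Laptm5*, a lysosomal protein, *Tmem119*, a marker of resident microglia, and *Csf1r*, their growth factor receptor, rose by 0.46, 0.41 and 0.34. None of these 3 rises was called without WT_Basal replicate 1, WT_Basal replicate 3 or WT_OL replicate 2 (limma, 0 of 3 in each fit, adjusted p up to 0.0825, 0.163 and 0.143). The transcripts that fell were AT-rich, at 38.6% GC for *P2ry12* and 37.1% for *Gpr34*, and those of *Laptm5* and *Tmem119* were at 56.0% and 59.1%. After correction *Laptm5* was called, and the log2 changes of *P2ry12* and *Gpr34* were -0.21 (adjusted p = 0.141) and -0.21 (adjusted p = 0.260). Of 20 markers of myelinating oligodendrocytes and 12 of their precursors, limma called 0, with medians of -0.02 and 0.03, and 0 after correction, with medians of -0.04 and -0.01. Without WT_OL replicate 1, 2 of the precursor markers were called higher. *Mbp*, the myelin basic protein gene, was at 3947, 3087 and 4144 CPM in the untrained and 3672, 5644 and 3303 CPM in the trained mice (adjusted p = 0.745).

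Vessels and membranes around the brain gave few calls. Of 20 endothelial markers 3 (15%) rose, against 3.88% of all genes, and 0 fell. The rises were *Mfsd2a*, *Flt1* and *Slc2a1*. The last, the glucose transporter of the blood-brain barrier, went from 95.5, 92.1 and 91.2 CPM to 122, 149 and 121 CPM (log2 change 0.48, adjusted p = 0.0122). *Slc2a1* was not called without WT_Basal replicate 3 or WT_OL replicate 2 (adjusted p up to 0.0522). The median of the list was 0.13 as deposited and 0.15 after correction, when *Mfsd2a* and *Slc2a1* were called and *Flt1* was not (adjusted p = 0.143). Without WT_Basal replicate 3, limma called 0 endothelial markers, without WT_Basal replicate 1 or WT_OL replicate 2 it called 1, and without WT_OL replicate 3 it called 4. Of 15 markers of pericytes and smooth muscle, *Pdgfrb*, the receptor that recruits pericytes, rose by 0.34 and was not called without WT_Basal replicate 1, 2 or 3 or WT_OL replicate 1 (adjusted p up to 0.108). After correction *Pdgfrb* was not called (adjusted p = 0.140) while *Rgs5*, a regulator of G protein signalling, was (log2 change 0.51, adjusted p = 0.0200), and the median of the list went from 0.10 to 0.02. Leaving out WT_OL replicate 3 gave 3 calls of 15, all higher. Meningeal fibroblast markers had a median log2 change of 0.41, with 13 of 14 positive, and *Col1a1*, a collagen chain, was called, going from 11.7, 6.53 and 6.59 CPM to 14.3, 14.9 and 19.5 CPM (adjusted p = 0.0381). Their summed level, 1258, 673 and 972 CPM in the untrained and 1547, 1459 and 1098 CPM in the trained mice, overlapped between the groups. *Col1a1* was not called without WT_Basal replicate 2 or 3 or WT_OL replicate 1, 2 or 3 (adjusted p up to 0.150). After correction the median was 0.46 and limma called 0 of the 14 (adjusted p = 0.107 for *Col1a1*).

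Choroid plexus epithelium, which lies next to the hippocampus and can be carried along in dissection, varied widely in the untrained mice. Its 18 markers summed to 3810, 1492 and 6640 CPM in the untrained and to 5018, 4423 and 3219 CPM in the trained mice, and 0 of them were called as deposited or after correction, with medians of 0.19 and 0.12. Without WT_Basal replicate 2 the median was -0.31. *Ttr*, the transthyretin gene that defines this tissue, was at 2185, 759 and 4004 CPM and 3037, 2964 and 1687 CPM. Ependymal markers, with 0 of 13 called either way and medians of -0.08 and -0.01, were steadier, at 92.5, 92.9 and 92.0 CPM in sum and then at 85.1, 94.8 and 73.4 CPM. Of the 4 red blood cell genes listed 0 were called either way, with medians of 0.26 and 0.19, and 1 was called higher without WT_OL replicate 2 or WT_OL replicate 3.

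Neuronal identity markers of the hippocampus were present in all libraries and gave nearly no calls. Of 15 dentate granule cell markers 1 fell (*Trpc6*, a cation channel, by 0.58), of 15 CA1 markers 0 were called, of 15 CA3 and CA2 markers 1 fell (*Elavl2*, an RNA-binding protein, by 0.55), and of 22 interneuron markers 0 were called. *Trpc6* and *Elavl2* were called without WT_OL replicate 3 and in none of the other 5 such fits (adjusted p from limma up to 0.137 and 0.188). Medians were -0.17, -0.09, -0.15 and -0.16. After correction limma called 0 in these 4 lists (adjusted p = 0.117 for *Trpc6* and 0.326 for *Elavl2*), with medians of -0.12, -0.10, -0.13 and -0.23. *Prox1*, the transcription factor that defines granule cells, was at 58.5, 58.4 and 57.9 CPM in untrained and at 45.1, 34.4 and 88.03 CPM in trained mice, so that trained replicates 1 and 2 lay below and replicate 3 above the untrained range. The summed granule cell markers showed the same order, at 933, 991 and 876 CPM in the untrained and 711, 563 and 1198 CPM in the trained mice. Without WT_OL replicate 3, 5 of the 15 granule cell markers, 2 CA1 markers, 2 CA3 and CA2 markers and 3 interneuron markers were called lower. Among 18 markers of progenitors and immature neurons, *Sox2*, a stem cell factor also found in astrocytes, fell by 0.42, a call lost whichever of the 6 libraries was left out (adjusted p up to 0.150). *Tubb3*, neuronal tubulin, rose by 0.29 and was not called without WT_Basal replicate 1 or 3 or WT_OL replicate 1 or 2 (adjusted p up to 0.116). After correction *Sox2* was called and *Tubb3* was not (adjusted p = 0.0313 and 0.312), and the median of the list went from 0.09 to 0.05.

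Markers of neighbouring regions differed between single libraries. Of 14 striatal markers, 14 had a negative log2 change and 0 were called as deposited or after correction, with medians of -0.92 and -0.89. Their summed level was 1039, 493 and 971 CPM in the untrained and 494, 522 and 519 CPM in the trained mice, so that untrained replicate 2 stood with the trained mice. *Adora2a*, the adenosine receptor of striatal projection neurons, was at 31.8, 2.76 and 25.1 CPM and 1.93, 2.11 and 1.91 CPM, and *Penk*, the enkephalin precursor, at 138, 24.2 and 122 CPM and 26.5, 22.5 and 28.9 CPM. Without WT_Basal replicate 2 the median was -1.36 and 3 of the 14 were called lower, and without WT_OL replicate 3 1 was. Thalamic and habenular markers and hypothalamic markers gave 0 calls of 16 and 0 of 14, with medians of 0.23 and 0.00, and after correction again 0 and 0, with medians of 0.19 and -0.04. The part of tissue from these regions in the other results was not tested.

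**Figure D5:**
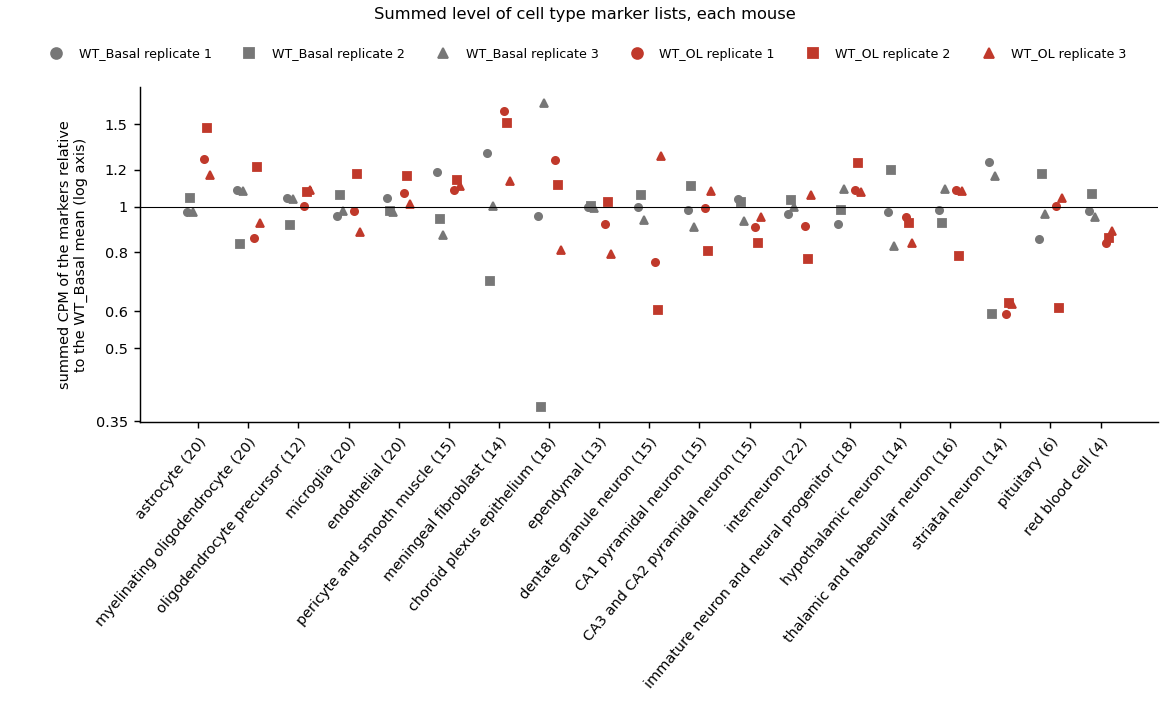
Summed CPM of each marker list in each mouse, divided by the mean of the 3 WT_Basal mice (log axis), with the number of markers listed in brackets. Symbols stand for single mice. The sum of astrocyte markers, of which *Slc1a2* holds a large part, lies higher in all 3 trained mice. Choroid plexus markers spread from 1492 to 6640 CPM within the untrained mice, and striatal markers are high in untrained replicates 1 and 3.

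The same training in *Ccny* KO mice shared no library with the WT contrast. Both contrasts were tested with the same estimate of the spread of each gene, so their calls are not independent. There 11.2% of the genes were called higher and 12.3% lower. The KO counts and changes in this and the next paragraph are as deposited. The median log2 change in KO mice also ran with GC content, from -0.23 in the lowest class to 0.13 in the highest. The part of this trend in the calls shared with WT mice was not tested. Of the genes called higher in WT mice, 348 (58.5%) were called higher in KO mice and made up 20.3% of the KO calls, and of those called lower in WT mice 639 (74.1%) were called lower in KO mice and made up 33.9% of the KO calls. No gene was called in opposite directions (0 of 1457 called in WT mice). For the immediate early transcription factors the KO contrast gave 13 rises and 1 fall among 23, with a median log2 change of 0.38, for clock genes 10 rises among 21, and for splicing factors 28 falls and 12 rises among 86. Other lists gave counts unlike those in WT mice. Chaperones gave 19 rises and 1 fall among 40, chromatin modifiers 26 and 2 among 73, and cytosolic ribosomal proteins 0 and 20 among 79. Astrocyte markers gave 1 rise and 3 falls among 20, with a median of -0.10. *Egr4* rose by 1.29 and *Fosb* by 1.25 in KO mice (adjusted p = 1.22e-05 and 5.81e-05). *Fos* had a log2 change of 0.38 there and was not called (adjusted p = 0.225), with mean levels of 16.1 CPM in KO_Basal and 20.8 CPM in KO_OL.

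In a test of the difference between the WT and KO changes across all 15329 genes, limma called 0, while 1908 had an unadjusted p under 0.05, and the lowest adjusted p was 0.368. For *Fos* the difference (WT minus KO) in log2 change was 1.59 (standard error 0.310, adjusted p = 0.368), and for *Npas4* it was 1.55 (standard error 0.398, adjusted p = 0.388). Without WT_OL replicate 3, 907 genes were called for this difference. Choroid plexus markers, of which 0 were called in WT mice, were all 18 called higher in KO mice with a median of 3.01, and 0 of the 18 were called for the difference. *Ccny* itself was at 158, 149.6 and 158 CPM in the untrained and 114, 119 and 150.3 CPM in the trained WT mice, a log2 change of -0.29 (standard error 0.106, adjusted p = 0.0953).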

How the data were processed

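RNA from the hippocampus of each mouse was selected for poly(A) tails, made into TruSeq libraries and sequenced on a HiSeq 2000 in pairs. Per the labels and the study's methods, the authors aligned reads to mm10 with STAR 2.5.1, counted them with its count module and scaled them with edgeR 3.12.1 (TMM) in R 3.3.0. They deposited log2 CPM values. The methods say that low values were raised to 1 before the log, but the deposited values fit log2(CPM + 1), and this form returned whole reads (tolerance 0.05) for 100% of the values below 2000 reads in each of the 6 libraries. The annotation and strand setting of counting are not given in the sources used here.

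The deposited log2 values of 18 libraries in 6 groups of 3 were fitted with limma 3.58.1 (R 4.3.3), with an empirical Bayes prior on the spread that followed the mean level (12 residual and 4.32 prior degrees of freedom). Genes with an adjusted p (Benjamini-Hochberg over 15329 genes) under 0.05 were called. No filter on low values was applied. Labels name separate samples without saying that the mice came from separate litters or days, so p-values measure the spread between these samples. Data were simulated for this comparison with all 15329 genes, with independent normal noise of the same spread in all groups and changes planted in genes of higher level. There 71.3% of genes changed by 0.5 on the log2 scale and 97.7% of those changed by 1 were called, and 3.77% of calls were false. The simulation held no shift shared across genes and no wider spread among trained mice, so these shares do not describe the calls on the deposited values. GC content and transcript length came from GENCODE M21 (99.3% of genes), and the correction removed a trend on both from each library. In 44 gene lists, 1253 of 1282 symbols were found, which gave 1220 different genes.

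Named genes were the 12 largest called rises and falls without overlap between the mice, up to 4 called members of each list, every called member of the immediate early, effector, glucocorticoid and clock lists, and *Ccny*. Members named outside this rule, among them those given as not called, were chosen after their values were seen. Some members chosen by the rule are counted but not reported here by name. The comparison, its members and the lists were chosen with earlier results of these data known. Promoters came from RefSeq (GRCm38.p6). Exons of 44 of 152 named genes share at least 100 bases with another gene, 8 of them on the same strand. Alternatives were other offsets, scalings, filters, variance models, library sets and a replicate block.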

Additional observations from a re-analysis of the deposited data

How the results depend on the processing

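The counts of 595 genes called higher and 862 lower stayed within 1.5 times under median-of-ratios scaling, quantile normalization, a filter at a mean of 1 CPM, either other form of the log, robust moderation, no variance trend and voom on the recovered reads (536 and 835). They moved to 271 and 210 with the correction for GC content and length, to 21 and 53 with the 6 libraries alone, and to 2328 and 2544 with library weights, which gave WT_OL replicate 1 a weight of 7.03 against 0.208 and 0.381 for replicates 2 and 3. Leaving out 1 library gave 206 to 942 higher and 423 to 1554 lower. The correction combined with leaving out a library, chosen after seeing the data, gave 122 and 82 without WT_OL replicate 2 and 501 and 664 without WT_OL replicate 3. Genes past 1.5-fold at an unadjusted p under 0.05 numbered 276, and 489 with CPM + 0.25 before the log, 563 with voom, 136 with the correction and 182 to 619 without 1 library. Genes whose change differed between WT and KO mice numbered 0, and 1 with CPM under 1 raised to 1, 1 with the replicate block, 2056 with library weights and 0 to 907 without 1 library. Same-numbered mice of the groups correlated at 0.102, -0.0493 and -0.189 in their deviations from the group means. With 3 mice a group centred on their own mean, these values cannot show whether the numbers pair the mice. The replicate block gave 665 higher and 995 lower calls. Of 115 called genes singled out by the rule, 19 kept their call under every alternative listed for them. The log2 change of *Psmc6*, a proteasome subunit, turned from -0.20 to 0.16 with the correction. The cause of these shifts was not tested. At these depths 1 read is at most 0.0333 CPM, so genes near this level have few reads behind them, and with 3 mice a group an outlying mouse was not tested for.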
